A study of Arabidopsis thaliana with 6 samples.

Results

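Universal stress proteins share a small domain first known from the bacterial protein UspA, which accumulates when growth stops or cells meet heat, starvation or oxidants. In plants the domain occurs in a large family of soluble proteins, some of which bind adenine nucleotides, and single members have been linked to low oxygen, drought, cold and the response to microbes. The family is described here in Arabidopsis thaliana leaves of a mutant affected in BRAHMA, a chromatin remodelling ATPase of the SWI/SNF type. The genes were chosen by name, as all probe sets with a deposited title that contains the words "universal stress protein". This gave 22 of 22808 probe sets on the array, or of 22746 once the 62 control probe sets are set aside. Below, the family means these genes, and any member titled otherwise was not chosen. No measured value entered that choice, but the family was taken up with earlier results of these arrays known. The counts and adjusted p-values below therefore describe these genes, and nothing is read from the share that passed.

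The mutant group is essp3, a line that the labels also call brm5 in one place and brm-6 in another, and whose lesion they do not give. The other group is the wild type carrying ProβCG:GUS, in which the promoter of a β-conglycinin seed storage protein gene drives the β-glucuronidase reporter. Leaves came from 2-week-old seedlings on agar plates with 1.5% sucrose, under days of 16 h light and 8 h dark, and each group has 3 ATH1 arrays (Affymetrix) that the labels call biological replicates. The sample names do not state whether the mutant line carries the reporter too.

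In the key of the deposited table the names of the essp3 arrays begin with B and those of the wild-type arrays with WT. The key gives the B arrays as mutant and the WT arrays as control. Anything else that these codes mark cannot be told apart from genotype. The number of probe sets called Present was 12863 to 13723 in essp3 and 13148 to 13761 in wild type. Present is the MAS5 call that the perfectly matching probes of a set read above their mismatched partners. The 25S ribosomal RNA control read 371 to 483 in essp3 and 4149 to 7797 in wild type, and its part in the results was not tested. The ratio of 3′ to 5′ signal for GAPDH ran from 1.44 to 1.70 in essp3 and from 1.68 to 1.83 in wild type. For ubiquitin this ratio was 2.69 to 3.05 in essp3 and 2.41 to 2.90 in wild type, and for actin it was 6.47 to 14.4 in essp3 and 7.39 to 15.3 in wild type. All 5 leaf markers found on the array, among them RBCS1A and LHCA1, were Present on every array, and none of them passed the test. The 5 root markers summed to between 286 and 359 in essp3 and between 297 and 384 in wild type, with 1 Present call in all (COBL9 on 1 essp3 array). The 3 flower markers summed to between 555 and 673 in essp3 and between 900.2 and 1066 in wild type. Of these, AG and AP3 had no Present call and the MADS-box gene SEP3 was Present on all 6 arrays, lower in essp3 by 0.85 on the log2 scale (adjusted p = 0.00101). Its part in the results was not tested.

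The 22 genes carry 22 different locus codes, all found in the gene table of RefSeq (TAIR10.1). A symbol of their own is given there for 4: PHOS32, PHOS34, RD2 and MRH6. By their codes, 10 lie on chromosome 3, 5 on chromosome 1, 3 on chromosome 2, and 2 each on chromosomes 4 and 5. The closest pair is AT3G03270 and AT3G03290, with 2 protein-coding genes between them. The titles of 3 members add a second name: early nodulin ENOD18 family for AT3G03270, a DC1 domain for AT3G21210, and responsive to dessication protein for RD2. No member's probe set has the suffix that marks probes shared between transcripts.

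In leaves of both genotypes most of the family was detected. Of the 22 genes, 15 (68.2%) had a Present call on 3 or more of the 6 arrays and so were tested, against 59.9% of all probe sets. Present calls on all 6 arrays were given to 14 members (63.6%), against 50.5% of all probe sets. The 15th tested gene, AT1G48960, was Present on 5 arrays and Marginal on essp3 replicate 3. None of the 15 therefore passed the detection filter through 1 genotype alone.

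Among the 15 tested genes, 5 were lower in essp3 and 1 was higher at a Benjamini-Hochberg adjusted p under 0.05 (limma on log2 signals, adjusted over 13626 probe sets). Thus 40.0% of the tested members passed, where 28.4% of all tested probe sets did; 33.3% were lower, against a background of 13.9%, and 6.67% were higher, against 14.4%. The 5 lower genes were AT3G01520, AT3G62550, AT3G17020, AT5G14680 and AT3G53990, with falls of 31.0% to 45.0%. The gene that rose was AT3G03270, by 45.4%. In whole leaves, fewer cells of a type and less RNA per cell cannot be told apart. Every fitted change in the family was under 2-fold: log2 differences (essp3 minus wild type) ran from -0.86 to 0.54, with a median of -0.40 over the 15 genes and of -0.01 over all tested probe sets. The median of the members was -0.24 without wild-type replicate 3 and -0.26 without essp3 replicate 3. The difference was below 0 for 11 of the 15, or 73.3%, and for 50.5% of all tested probe sets.

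**Figure D1:**
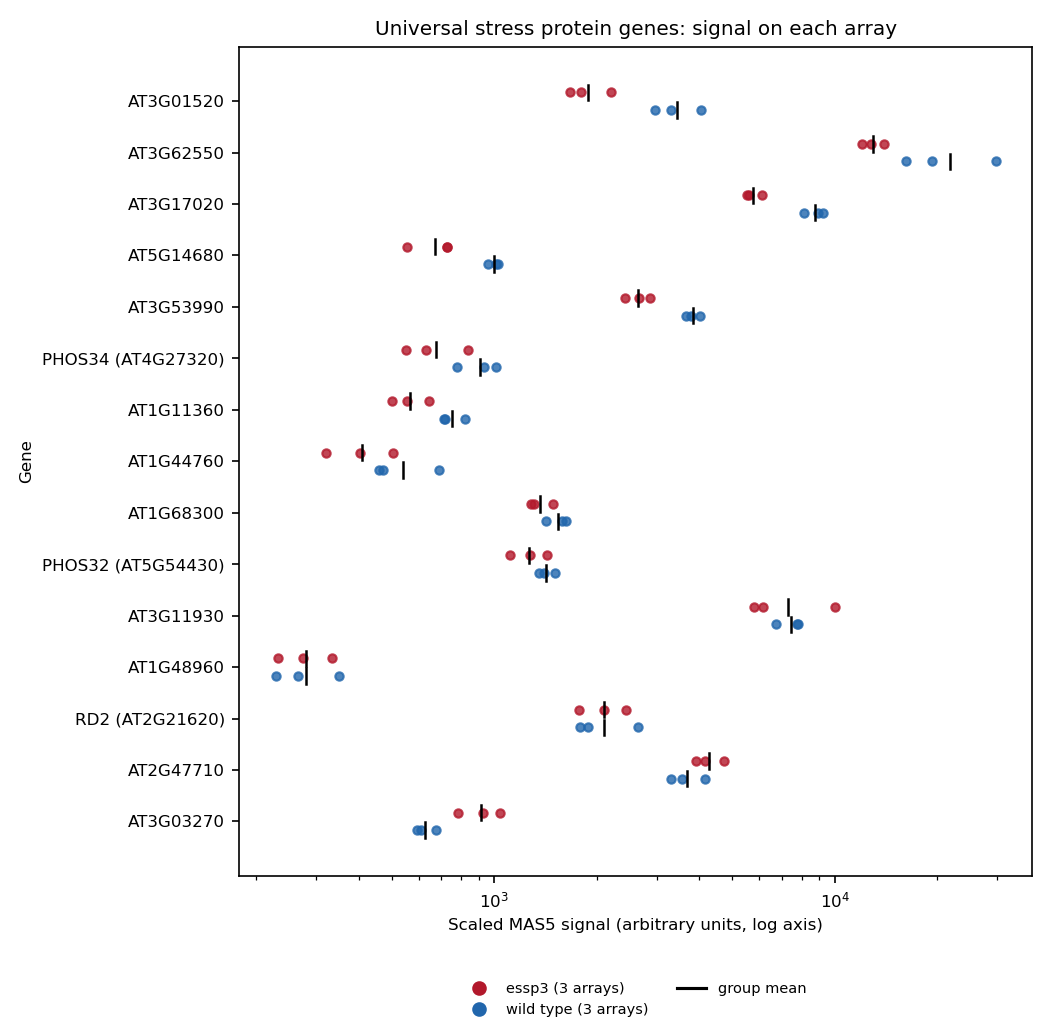
Scaled MAS5 signal (log axis, arbitrary units) of the 15 tested universal stress protein genes, with the 3 essp3 arrays in red above the 3 wild-type arrays in blue and a black tick at each group mean. In the top 5 rows the red points lie left of all blue points, in the bottom row (AT3G03270) they lie right of them, and signals of different genes are not comparable because each probe set has its own response.

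AT3G01520 had the largest fall in the family. Its protein is known from a crystal structure with AMP bound, an example of the nucleotide-binding type. The signals were 2200.4, 1674 and 1796 on the essp3 arrays and 2972, 3302 and 4049 on the wild-type arrays. The groups did not overlap, and the highest essp3 array stayed below the lowest wild-type array. The means were 1890.1 ± 276 in essp3 and 3441 ± 552 in wild type (SD, n = 3 each), a log2 difference of -0.86 (SE 0.15, 95% interval -1.18 to -0.54, adjusted p = 0.000749). Of the 13626 tested probe sets, 671 had a fall at least as large.

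AT3G62550 read 12800.2, 12068 and 13962 in essp3, against 16156, 19356 and 29757 in wild type. The groups did not overlap, but wild-type replicate 3 stood far above the other wild-type arrays, and the coefficient of variation was 7.38% in essp3 and 32.7% in wild type. The log2 difference was -0.70 (SE 0.17, 95% interval -1.08 to -0.33, adjusted p = 0.00830). Without wild-type replicate 3 the fall was 0.45 on the log2 scale (adjusted p = 0.0166), and the adjusted p ranged from 0.000626 to 0.233 over all alternatives tried.

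AT3G17020 gave the tightest estimate of the family. Its signals were 6111, 5539 and 5599 in essp3 and 8138, 9247 and 8946 in wild type. All essp3 arrays lay below all wild-type arrays, with a gap between the groups wider than the range within either. This gave a log2 difference of -0.61 (SE 0.11, 95% interval -0.85 to -0.37, adjusted p = 0.00106), a fall of 34.5%.

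AT5G14680 read 555, 728 and 727 in essp3, against 962, 1029 and 1010.2 in wild type. The wild-type arrays lay close together, and essp3 replicate 1 was the lowest of all. On the log2 scale the difference was -0.59 (SE 0.15, 95% interval -0.91 to -0.26, adjusted p = 0.0105). Without essp3 replicate 1 it was -0.46 (adjusted p = 0.0503), and over all alternatives the adjusted p ranged from 0.00643 to 0.0503.

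AT3G53990, whose protein is known as a chaperone that protects other proteins under heat and oxidative stress, had 2417, 2655 and 2864 in essp3 and 3795, 4028 and 3656 in wild type. Again no essp3 array reached the lowest wild-type array. The fitted log2 difference was -0.53 (SE 0.12, 95% interval -0.79 to -0.28, adjusted p = 0.00442). For this gene and for AT3G17020 the call held under every alternative tried.

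AT3G03270 was the 1 member that rose. It is known as HRU1, a universal stress protein induced by low oxygen that acts with the small GTPase ROP2 and the NADPH oxidase RBOHD in control of hydrogen peroxide. The essp3 arrays read 1038, 930.4 and 783, and the wild-type arrays 595, 677 and 610.2. All 3 essp3 arrays lay above the wild-type arrays, with more spread among them (SD 128 in essp3 and 43.5 in wild type, n = 3 each). The log2 difference was 0.54 (SE 0.15, 95% interval 0.21 to 0.87, adjusted p = 0.0171). The call ended without essp3 replicate 1 (0.45, adjusted p = 0.0783) or without essp3 replicate 2 (0.53, adjusted p = 0.0644), and the adjusted p ranged from 0.00902 to 0.0930 over all alternatives. Its chromosomal neighbour in the family, AT3G03290, had no Present call in either genotype.

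**Figure D2:**
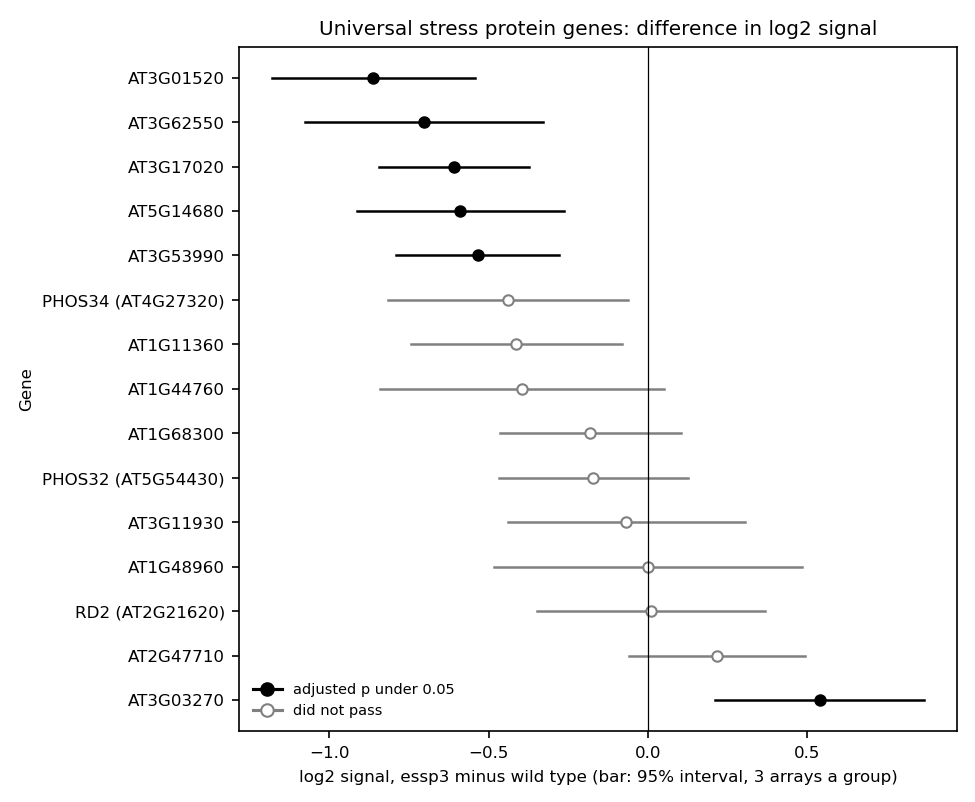
Log2 signal in essp3 minus wild type for the 15 tested universal stress protein genes, ordered by size, with 95% intervals from limma (3 arrays in each group). Filled black points passed an adjusted p of 0.05: 5 genes on the left, from AT3G01520 at -0.86 to AT3G53990 at -0.53, and AT3G03270 on the right at 0.54.

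The next 2 genes in order of size lay just outside the threshold. AT1G11360 read 644, 554 and 501 in essp3 and 718, 714 and 823 in wild type. Its groups did not overlap, yet the log2 difference of -0.41 (95% interval -0.75 to -0.08) had an adjusted p of 0.0614, and of 0.0488 without essp3 replicate 1 (0.0488 to 0.174 over the alternatives). PHOS34, whose protein is phosphorylated in response to microbial elicitors, read 841, 632 and 552 in essp3 and 931, 1011 and 777 in wild type. Here essp3 replicate 1 exceeded wild-type replicate 3. The log2 difference was -0.44 (95% interval -0.82 to -0.06, adjusted p = 0.0793). PHOS34 passed without essp3 replicate 1 (-0.61, adjusted p = 0.0268), without wild-type replicate 3 (-0.55, adjusted p = 0.0490) and, under array weights (-0.48), at an adjusted p of 0.0344, and its adjusted p reached 0.254 at most.

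PHOS32, the relative of PHOS34 known as a substrate of the mitogen-activated protein kinases MPK3 and MPK6, did not pass. It read 1110.0, 1271 and 1428 in essp3 and 1404, 1359 and 1506 in wild type, and essp3 replicate 3 lay within the wild-type range. The log2 difference was -0.17 (95% interval -0.47 to 0.13, adjusted p = 0.389). The difference between the responses of PHOS32 and PHOS34 was not tested.

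RD2, named in its title for its response to desiccation, read 1772, 2097 and 2433 in essp3 and 1783, 1882 and 2641 in wild type. The groups covered nearly the same range, and the log2 difference was 0.01 (95% interval -0.35 to 0.37, adjusted p = 0.973). AT1G48960 was as close to 0, with 279.9 ± 51.9 in essp3 and 281 ± 62.5 in wild type, but its interval from -0.48 to 0.49 was the widest of the family. A difference that size in either direction was therefore not detectable with these arrays.

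AT3G11930 overlapped between genotypes through 1 array. Its signals were 9999, 6145 and 5787 in essp3 and 7753, 6741 and 7828 in wild type, so essp3 replicate 1 was above and the other essp3 arrays below every wild-type array. The log2 difference was -0.07 (95% interval -0.44 to 0.30). Without essp3 replicate 1 it was -0.32, and it was above 0 without essp3 replicate 2 or 3, so no direction can be given.

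The remaining 3 tested members did not pass either. AT1G44760 had a log2 difference of -0.40 (adjusted p = 0.175) and a wide interval, from -0.84 to 0.05. AT1G68300 had -0.18 (adjusted p = 0.338). AT2G47710 had 0.22 (95% interval -0.06 to 0.49, adjusted p = 0.231), the only positive difference above 0.01 other than that of AT3G03270. For each of these genes the groups overlapped.

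The arrays of the groups did not overlap for 7 of the 15 genes (46.7%), the 6 that passed and AT1G11360; the background over all tested probe sets was 42.7%. Signals of essp3 lay below those of wild type for 6 of them (40.0%, background 21.6%) and above for 1 (6.67%, background 21.1%). Spread between replicates was modest: the coefficient of variation over the 15 genes had a median of 14.0% in essp3 and 8.24% in wild type, and reached 31.9% (AT3G11930) and 32.7% (AT3G62550). No array was the extreme of its group for every gene. Replicate 1 of essp3 was the highest essp3 array for 8 genes and the lowest for 5, and wild-type replicate 3 was the highest wild-type array for 8 and the lowest for 3. The standard errors of the members, 0.11 to 0.23 on the log2 scale, bracketed the median of 0.18 over all tested probe sets.

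**Figure D3:**
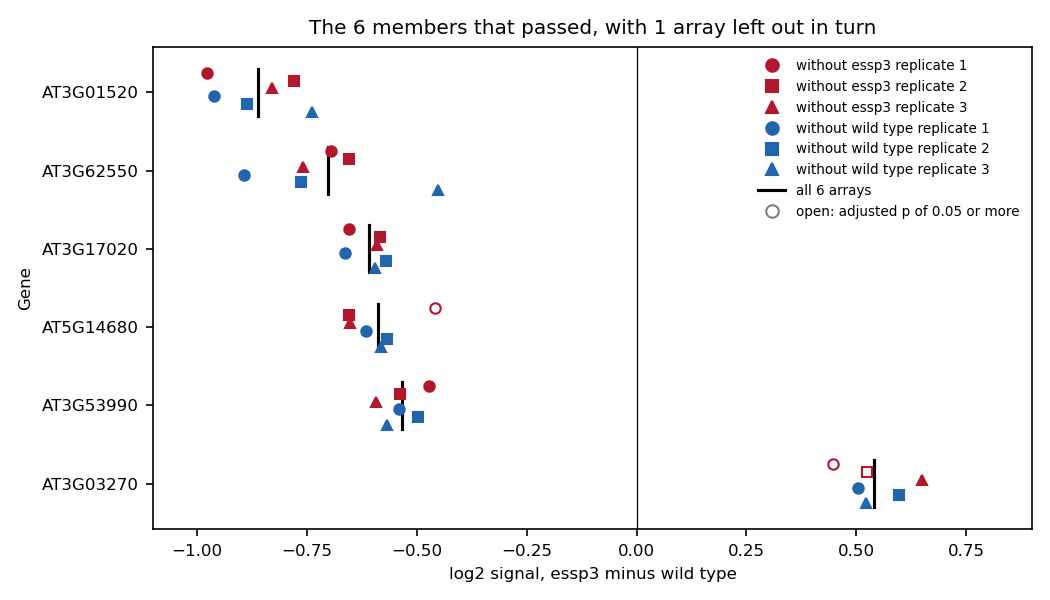
Log2 signal in essp3 minus wild type for the 6 genes that passed, with all 6 arrays (black line) and with each array left out in turn (red: an essp3 array; blue: a wild-type array). Open symbols, which mark an adjusted p of 0.05 or more, appear for AT5G14680 without essp3 replicate 1 and for AT3G03270 without essp3 replicates 1 or 2; AT3G62550 shifts most, to -0.45, without wild-type replicate 3.

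In the authors' deposited table, 6 of the 22 members had an unadjusted p under 0.05, as did 22.2% of all probe sets other than controls. Of these 6 members, 5 had a ratio below 1 and 1 above 1. That set and the 6 genes called here shared 5 genes. AT1G11360 was in the authors' set (p = 0.0279 in the authors' deposited table) and AT3G62550 in the other (p = 0.100 there).

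The other 7 members were not detected reliably in leaves, and none was tested. AT1G69080, AT3G03290, AT3G21210, AT3G25930, AT3G58450 and MRH6 had no Present call, and AT4G13450 had 1, on wild-type replicate 1 at a signal of 87.5. MRH6 takes its symbol from root hair morphogenesis. It read 2.18, 38.0 and 2.73 in essp3 and 74.5, 3.66 and 40.2 in wild type. Over the 7 genes, signals ran from 2.18 to 149.6 in essp3 and from 3.27 to 87.5 in wild type, while the lowest signal called Present on an array was 33.1 to 49.2 in essp3 and 26.3 to 34.2 in wild type. The groups overlapped for all 7. AT1G69080 read 89.3, 149.6 and 27.3 in essp3 against 35.3, 31.5 and 23.1 in wild type, and its essp3 replicate 3 lay inside the wild-type range. AT3G58450 read 47.9, 8.26 and 51.0 in essp3 and 6.53, 14.6 and 7.04 in wild type. No fold is given for these 7 genes.

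**Figure D4:**
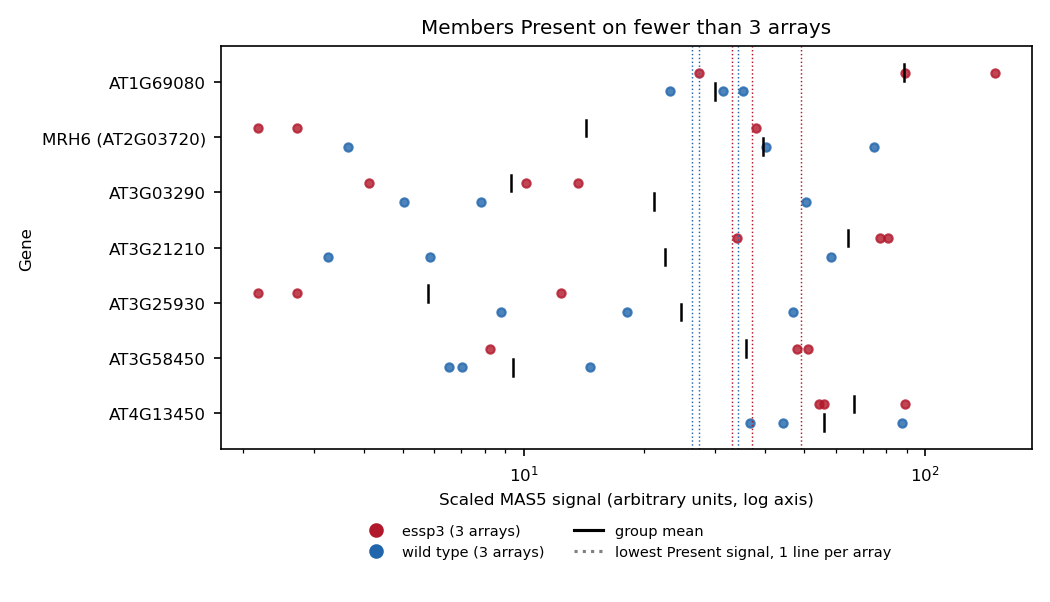
Scaled MAS5 signal (log axis) of the 7 universal stress protein genes Present on fewer than 3 arrays, essp3 in red above wild type in blue, with group means as ticks and dotted lines at the lowest signal called Present on each array. Many points fall left of the dotted lines and the genotypes overlap in every row.

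Because HRU1 belongs to the low oxygen response, 16 genes of that response were examined beside it. Group VII ethylene response factors such as RAP2.12 activate fermentation genes when oxygen is scarce. In air, plant cysteine oxidases (PCO) mark these factors for breakdown. Of the 16 genes, 11 were tested; 5 were lower in essp3 and 1 was higher, where 28.4% of all tested probe sets passed, 13.9% lower and 14.4% higher. The other 5 did not pass, and the median log2 difference over the 11 was -0.07. Of the 5 lower genes, 4 were ethylene response factor genes of this group. The count pools such factors with other genes of the response and gives no direction for the response as a whole. RAP2.12 read 980.0, 853 and 667 in essp3, against 2717, 2728 and 2809.6 in wild type (log2 difference -1.74, SE 0.15, adjusted p = 3.25e-06). RAP2.2 fell by 0.98 and RAP2.3 by 0.63 on the log2 scale (adjusted p = 9.44e-05 and 0.00188). HRE1 read 58.1, 31.4 and 70.2 in essp3, with no Present call, and 161, 299 and 229 in wild type, where it was Present on all 3 arrays. The log2 difference of HRE1 was -2.14 (95% interval -3.05 to -1.24, adjusted p = 0.00197). From means of log2 signals, with undetected signals raised to the lowest Present signal of their array, HRE1 was an estimated 4.34-fold lower in essp3. HRE1 was tested through its wild-type Present calls alone. A gene let in that way is more likely to read higher in wild type, so its place among the 5 lower genes adds no support. For these 4 genes the groups did not overlap.

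The other 2 low oxygen genes that passed are named outside the rule for named genes, after their values were seen. The low oxygen genes below that did not pass or were not tested are outside that rule too. PCO1, for a plant cysteine oxidase, rose: it read 591, 460.2 and 576 in essp3 and 96.7, 225 and 325 in wild type, where it was Present on 2 of 3 arrays (log2 difference 1.49, SE 0.33, adjusted p = 0.00451). Without wild-type replicate 1, where PCO1 had no Present call, the log2 difference was 0.99 (adjusted p = 0.00336). The LOB domain gene LBD41 had a log2 difference of -0.92 (adjusted p = 0.0189), with overlapping groups. Its call ended without any 1 of essp3 replicates 2 and 3 and wild-type replicates 2 and 3 (adjusted p of 0.0662 to 0.0890), and the adjusted p ranged from 8.72e-05 to 0.235 over all alternatives. A second plant cysteine oxidase gene, PCO2, did not pass (log2 difference 0.03, adjusted p = 0.941). Nor did HB1 (-0.07, adjusted p = 0.830), SUS1 (0.35, adjusted p = 0.139) and HRA1 (0.72, adjusted p = 0.215). The fermentation gene ADH1, for alcohol dehydrogenase, did not pass either. It read 253, 216 and 176 in essp3 and 99.9, 175 and 153 in wild type (log2 difference 0.61, adjusted p = 0.132). PDC1, for pyruvate decarboxylase, was 1 of 5 low oxygen genes with no Present call. It read 100.2, 101 and 79.3 in essp3 and 9.15, 13.2 and 17.1 in wild type. For the others, ACO1, HRE2, SUS4 and SRO5, the groups overlapped, and none of the 5 was tested. No relation of HRU1 to these genes was tested.

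All 5 genes listed as partners of family members were tested: 1 rose, 1 fell and 3 did not pass, beside the 28.4% of all tested probe sets that passed. RBOHD, the NADPH oxidase gene, rose, with 1274, 1204 and 1212 in essp3 and 534, 569 and 684 in wild type (log2 difference 1.05, SE 0.15, adjusted p = 0.000146), a rise of 108% on arrays that did not overlap. ROP2 had -0.13 (95% interval -0.47 to 0.20, adjusted p = 0.561). MPK6 read 1106, 1064 and 1132 in essp3 and 1601, 1367 and 1434 in wild type (log2 difference -0.41, adjusted p = 0.0297). The MPK6 call ended without essp3 replicate 1 (adjusted p = 0.0666), essp3 replicate 2 (0.104) or replicate 1 of wild type (0.0934), with a range of 0.0199 to 0.104 over all alternatives. MPK3 had the same size of difference, -0.41, with an adjusted p of 0.0513 (0.0371 to 0.241 over all alternatives). The thioredoxin gene TRX3 had -0.08 (adjusted p = 0.641).

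**Figure D5:**
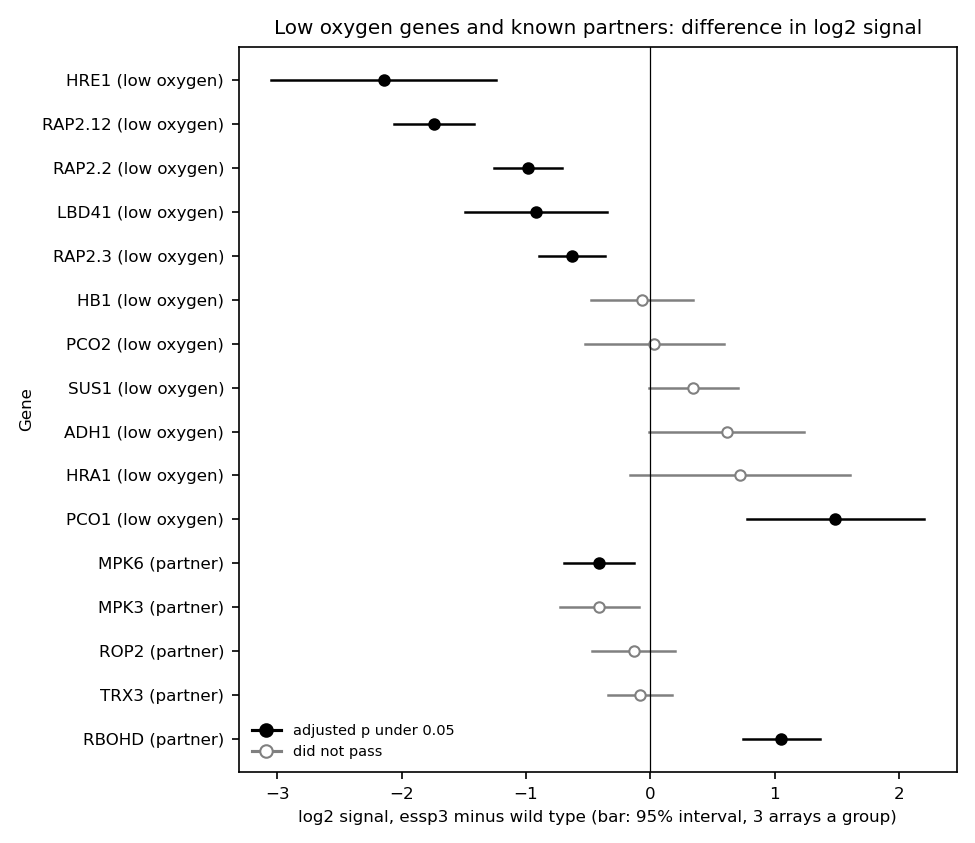
Log2 signal in essp3 minus wild type, with 95% intervals, for the 11 tested low oxygen genes (top) and the 5 partners of family members (bottom). Filled points passed an adjusted p of 0.05: HRE1, RAP2.12, RAP2.2, LBD41, RAP2.3 and MPK6 lie left of 0, and PCO1 and RBOHD right of it.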

How the data were processed

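Total RNA of 6 leaf samples was hybridised to 6 ATH1 arrays. Per the file headers, the deposited values are MAS5 signal intensities that the authors scaled to a common mean per array (1000), on a linear scale, with a detection call for each. Per the file headers, the ratio and unadjusted p-value that the authors deposited for each probe set stem from unpaired testing. No source used here gives the MAS5 settings, the annotation release or the genome build, so no coordinates are printed. The series' value table held identical signals.

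Here, log2 signals without an offset were fitted in R 4.3.3 by lmFit and eBayes of limma 3.58.1, with an intensity trend, two-sided, for the 13626 probe sets Present on at least 3 of 6 arrays, control probe sets left out, with Benjamini-Hochberg adjustment over all of them and a threshold of 0.05. The code was tested on simulated data. Intervals cover the spread between 3 arrays a group, whose number limits the precision. An exact permutation test of 3 against 3 cannot go below p = 0.1, so none is given. The fold given for HRE1, from means of log2 signals, set undetected signals to the lowest Present signal of their array where that is higher. It is an estimate without an interval.

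The members and lists were chosen with earlier results of these data known. Members that passed, did not overlap or came within 0.02 of the threshold are named, as are up to 4 genes past the threshold from each list. Remaining members are named for completeness, and other listed genes that are named fall outside this rule. A planned list of further family members by description could not be built, because the gene table used holds no descriptions. Whether the array holds members under other titles was therefore not examined. Protein and promoter sequences were not used here. Replicate numbers were not taken to pair the samples, since the correlations of deviations for equal numbers, 0.02 to 0.03, were under 0.1.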

Additional observations from a re-analysis of the deposited data

How the results depend on the processing

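Counts of members that passed stayed within 1.5 times of those reported (6 in all, 5 lower, 1 higher) under 9 of the 10 alternatives that used all 6 arrays: 3 other detection filters, no variance trend, array weights, an offset of 32, quantile normalization, the replicate block and the methods' t-test unadjusted. The methods' t-test on linear signals after adjustment was the exception, with 3 members, 3 lower and 0 higher (1 higher unadjusted), and 1694 probe sets in all against 3865; AT3G17020, AT5G14680 and AT3G53990 passed it, whereas AT3G01520, AT3G62550 and AT3G03270 did not (adjusted p = 0.0708, 0.233 and 0.0930). The low oxygen genes RAP2.3, HRE1 and PCO1 did not pass it either (adjusted p = 0.0831, 0.0728 and 0.0749). For these genes those were the highest values over all alternatives, and the lowest were 0.000419, 0.000435 and 0.000669. LBD41 (adjusted p = 0.235) and the partner MPK6 (adjusted p = 0.0530) also did not pass the adjusted t-test. That test estimates each variance from 6 arrays alone. AT3G62550 did not pass without the variance trend (adjusted p = 0.0609), and neither did LBD41 (0.0789) and MPK6 (0.0572). With 1 array left out, 5 to 7 members passed, 5 to 6 lower and 0 to 1 higher, and 2679 to 3638 probe sets in all. Directions turned only for 3 members near 0. AT1G48960 and RD2 (AT2G21620) had -0.024 and -0.011 with quantile normalization and -0.0049 and -0.00087 as ratios of mean linear signals. With 1 array left out they ran from -0.14 to 0.17 and from -0.10 to 0.19, and AT3G11930 from -0.32 to 0.078. With the replicate block 6 members (5 lower, 1 higher) and 3737 probe sets passed; each array's deviations correlated most with those of its own number, but only by 0.02 to 0.03, too little to take the numbers as pairs. The series' value table was not run as an alternative because its signals were identical. Signals under the lowest Present value limit what can be said of the 7 undetected members.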
